A study of Mus musculus with 25 samples.

Results

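RNA-seq of SCNT (somatic cell nuclear transfer) embryos treated with RK-701 was compared with that of IVF (in vitro fertilized) embryos at the late 2-cell stage, to describe which genes and functions of the treated embryos were still unlike those of fertilized ones. The comparison used 3 RK-701 libraries and 4 IVF libraries of the 25 libraries of the series, and every other treated SCNT group held 2 libraries. It was restricted to autosomal genes, because the SCNT embryos were all female and the IVF embryos of both sexes. Of 51146 autosomal genes in the count table, 25794 had a mean of at least 1 read over the 25 libraries and were tested.

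All embryos were wild type. IVF embryos came from oocytes of C57BL/6N females, 4 to 20 weeks old per the labels, and sperm of adult DBA2 males, and received no inhibitor. SCNT embryos were made from oocytes of BDF1 females (a C57BL/6N and DBA2 cross) and nuclei of cumulus cells, the somatic cells that surround the oocyte, from wild-type BDF1 females. They were made with latrunculin A (LatA), which blocks actin polymerization, in place of cytochalasin B, and were treated for 24 h with RK-701, an inhibitor of the histone methyltransferase G9a, at 1 µM. An SCNT group with LatA and no inhibitor (2 libraries, called the LatA control) is given beside the results. Each library came from a pool of 5 to 10 embryos collected 28 to 29 h after insemination or activation. SCNT and IVF embryos had oocytes of different strains, so effects of oocyte strain and of nuclear transfer cannot be told apart below, and RK-701 embryos carried LatA exposure as well.

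The early mouse embryo lives on transcripts stored in the oocyte until zygotic genome activation (ZGA), whose major wave takes place at the 2-cell stage. In SCNT embryos a somatic nucleus has to run this program, and methylation of histone H3 at lysine 9 (H3K9) brought along from the donor cell is known to keep many genes silent. G9a, encoded by Ehmt2, and its partner GLP, encoded by Ehmt1, place the mono- and dimethyl marks on H3K9 in euchromatin, and the trimethyl mark can be built on them.

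Reads on genes ranged from 6662727 to 16791202 in the IVF libraries and from 10472261 to 14572436 in the RK-701 libraries, and the lowest total was that of IVF replicate 1. Across genes, libraries of the same group had Pearson's r of 0.967 to 0.984 in log2 normalized counts, whereas r was 0.908 between the LatA control libraries. All 8 markers of oocytes and early embryos had reads in every library, and their summed normalized count (CPM after TMM scaling) was 6724 to 7766 in IVF and 4377 to 4576 with RK-701. Most of this sum was Dppa3, with means of 6104 and 2860. Zar1 (−1.41), Zp3 (−0.87) and Ooep (−0.47) were also lower with RK-701, by their log2 fold changes. Those of Gdf9 (−0.13), Padi6 (−0.04) and Nlrp5 (−0.06) were near 0, and X-linked Bmp15 had means of 406 in IVF and 1110 with RK-701. Of 8 cumulus cell markers, 3 to 5 had a read in each library, with sums of 7.33 to 13.5 in IVF and 4.78 to 8.94 with RK-701, and Inha, Amh and Ptx3 had 0 reads in all 7. Of 6 sperm markers, 3 or 4 had a read, with sums of 0.746 to 2.93 in IVF and 1.69 to 2.36 with RK-701. The part of these markers in the results was not tested. In bulk RNA a lower level of a transcript in every cell and fewer cells with it cannot be told apart.

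RK-701 embryos differed from IVF embryos in 3044 genes, 11.8% of those tested, at an adjusted p under 0.05 (edgeR's quasi-likelihood test with Benjamini-Hochberg adjustment) and a fold change over 2. Of these, 1715 (6.65%) were higher and 1329 (5.15%) lower than in IVF. The genes that were higher came from a low level, with a median normalized count of 2.61 in IVF and 9.02 with RK-701, whereas those that were lower had 13.3 in IVF and 4.08 with RK-701. Over all genes tested the medians were 1.87 and 2.02, and the median log2 fold change was 0.01. A fitted fold over 16 was seen for 187 higher and 219 lower genes. Among protein-coding genes 2284 of 16234 differed (14.1%), with 1339 (8.25%) higher and 945 (5.82%) lower. Among the 8130 genes with a mean normalized count of at least 10 over the 7 libraries, a level chosen after the values were seen, 567 (6.97%) were higher and 650 (8.00%) lower (15.0% in all), so lower genes were the majority at that level. The normalized counts of both groups did not overlap for 8463 of the 25794 genes (32.8%, with 16.4% in each direction) and for 2931 of the 3044 called genes. Replicates were pools of embryos, and p-values rest on the spread between such pools within groups. That spread was estimated over all 25 libraries in 11 groups, not over RK-701 and IVF alone. With only the 7 compared libraries in the fit, 3977 genes were called.

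**Figure D1:**
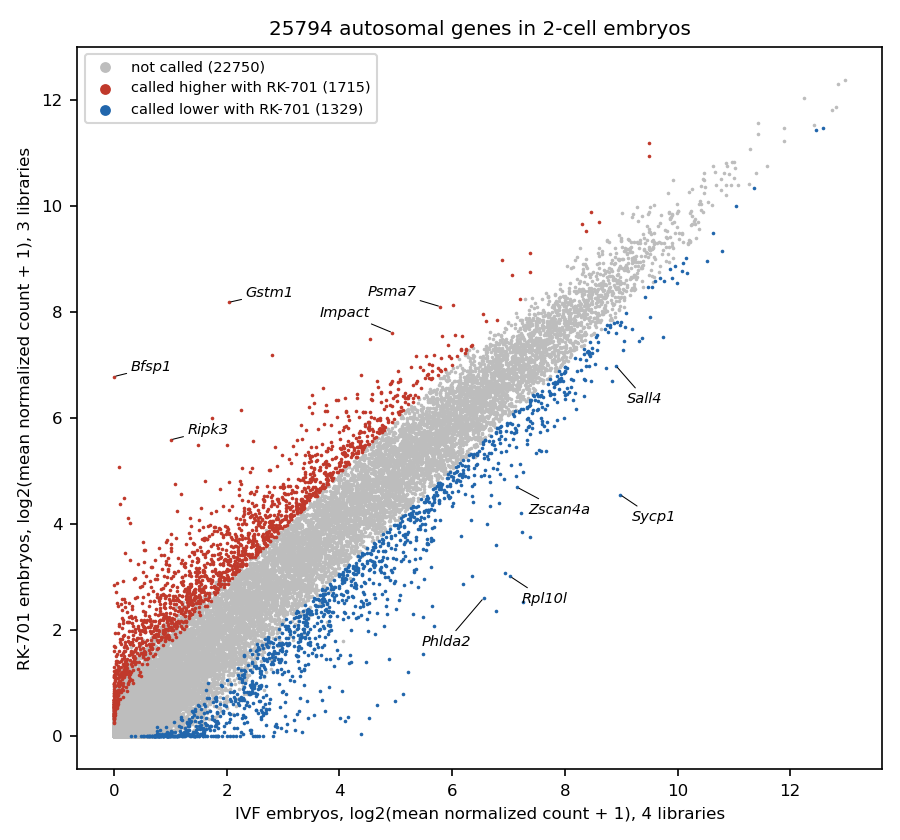
Mean normalized count of each of 25794 autosomal genes in 4 IVF libraries (x axis) and 3 RK-701 libraries (y axis), both as log2(mean normalized count + 1). Red points are the 1715 genes called higher with RK-701, blue points the 1329 called lower and grey points the genes not called. Gstm1, Bfsp1 and Ripk3 lie far above the diagonal, and Sycp1, Rpl10l and Phlda2 far below it.

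Bfsp1, which encodes filensin, an intermediate filament protein of the eye lens, was abundant with RK-701 and without a read in IVF. Its normalized count was 121, 99.6 and 107 in the RK-701 libraries, and it had 0 reads in all 4 IVF libraries. At 3 reads over the IVF group as the floor, it was at least 1905-fold higher (adjusted p = 5.98e-16). Bfsp1 (chr2:143826528-143863173, minus strand) had 158 and 155 in the LatA control, so the RK-701 and LatA control libraries all stood apart from IVF. Gstm1 (chr3:108012255-108017973, minus strand), a glutathione S-transferase, had 346, 289 and 235 with RK-701 and 4.03, 3.29, 1.36 and 3.76 in IVF. It rose by a log2 fold change of 6.58 ± 0.38 (SE; adjusted p = 4.3e-12), and was at 280 and 110 in the LatA control. Reads that fit more than 1 position were dropped, so counts of families of near-identical genes, such as the glutathione S-transferases, are uncertain.

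Further genes were at or near zero in IVF. Slc39a8, a metal ion importer, had 34.8, 36 and 27 with RK-701 and 0, 0, 0.259 and 0 in IVF (log2 fold change 8.58 ± 0.79, adjusted p = 1.25e-08). Steap3, a ferrireductase of endosomes, had 18.8, 24.3 and 16 against 0, 0.124, 0.0648 and 0.139 (7.56 ± 0.44, adjusted p = 4.3e-12). All RK-701 libraries lay far above all IVF libraries for both. Ambp, the precursor of alpha-1-microglobulin, had 8.14, 6.86 and 3.75 and no IVF read, at least 109-fold higher. Fam3b, a secreted cytokine-like protein, had 1.61, 1.19 and 1.28 and no IVF read, at least 23.7-fold higher. Pxdn, a matrix peroxidase, had 7.45, 4.99 and 6.73 with RK-701 and a single read in the 4 IVF libraries together, a ratio of 340 with a 95% counting interval of 60.5 to 13493. Lrrk2, a large kinase, had 14, 14.3 and 17.5 against 0.31, 0, 0 and 0.558 (6.22 ± 0.62). Intervals and floors cover counting error only.

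Of 25794 genes tested, 20 that were called lower had no read in any RK-701 library and at least 10 in every IVF library. Of these 20, 13 were protein coding, and the reverse held for 5 genes called higher. Absence was required of 3 libraries for the 20 and of 4 for the 5, so these counts are not like for like. Among the 13 were several DNA-binding regulators of later development. Sp8, a zinc finger gene of limb growth, had 4.34, 5.53, 3.18 and 6.2 in IVF (at least 63.6-fold more), Pou3f1, a POU factor, at 2.58 to 5.16 (at least 49.1-fold) and Lmx1b, a LIM homeobox gene, at 2.59 to 4.23 (at least 43.7-fold). Other genes of the 13 were Fut9, a fucosyltransferase (at least 65.5-fold), Rbmxl2, an RNA-binding protein of the testis (at least 45.9-fold), and Cdhr1, a photoreceptor cadherin (at least 41.9-fold). Sox11, an HMG box factor of the developing nervous system, had 25.9, 9.7, 32.9 and 10.9 in IVF and 1 read in the 3 RK-701 libraries together, a ratio of 749 (95% counting interval 134 to 29616). The LatA control had no read of Sp8 or Sox11, and 1 of its 2 libraries had a trace (0.0543) of Lmx1b, Pou3f1 and Fut9. For these genes other than Sox11, absence in RK-701 and reads in every IVF library were the rule of selection. The LatA control was not part of that rule.

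The promoters of 5 genes with large differences are shown, because the groups described below differ in the CpG content of this stretch. Each is the 250 bases before the RefSeq start of the gene (GRCm38.p6, minus strand in all 5 cases), 5′ to 3′, with CpG dinucleotides in capitals. Sycp1 and Mael are examples of germline genes that were lower with RK-701, Zscan4d of the ZGA genes that were lower, and Gstm1 and Bfsp1 of genes that were higher.
Sycp1, chr3:102936101-102936350: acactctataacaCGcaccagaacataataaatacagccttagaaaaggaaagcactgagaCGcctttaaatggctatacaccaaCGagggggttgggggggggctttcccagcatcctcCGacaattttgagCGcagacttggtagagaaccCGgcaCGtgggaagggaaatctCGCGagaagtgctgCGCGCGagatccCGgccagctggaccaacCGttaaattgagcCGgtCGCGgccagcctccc
Mael, chr1:166238745-166238994: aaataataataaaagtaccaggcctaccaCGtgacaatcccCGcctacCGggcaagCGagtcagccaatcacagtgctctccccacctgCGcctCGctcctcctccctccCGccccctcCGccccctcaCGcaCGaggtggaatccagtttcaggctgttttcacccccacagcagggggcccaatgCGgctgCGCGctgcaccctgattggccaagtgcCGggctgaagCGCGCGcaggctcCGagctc
Zscan4d, chr7:11166149-11166398: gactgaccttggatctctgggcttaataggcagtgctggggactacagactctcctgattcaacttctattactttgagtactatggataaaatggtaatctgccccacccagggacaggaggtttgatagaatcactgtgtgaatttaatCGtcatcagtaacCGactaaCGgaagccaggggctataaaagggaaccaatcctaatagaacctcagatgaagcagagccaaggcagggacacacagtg
Gstm1, chr3:108017974-108018223: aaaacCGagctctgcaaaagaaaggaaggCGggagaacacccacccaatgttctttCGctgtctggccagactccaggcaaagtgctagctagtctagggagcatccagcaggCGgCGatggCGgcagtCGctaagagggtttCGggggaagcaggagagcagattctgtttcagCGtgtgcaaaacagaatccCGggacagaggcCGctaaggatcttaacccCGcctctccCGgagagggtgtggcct
Bfsp1, chr2:143863174-143863423: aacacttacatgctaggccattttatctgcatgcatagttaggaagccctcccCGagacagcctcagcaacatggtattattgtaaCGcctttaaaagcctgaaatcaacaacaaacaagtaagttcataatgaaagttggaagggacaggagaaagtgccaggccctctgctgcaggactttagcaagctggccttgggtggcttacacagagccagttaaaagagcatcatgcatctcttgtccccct
The window held 17 CpGs for Sycp1 and 18 for Mael, against 3 for Zscan4d, 13 for Gstm1 and 2 for Bfsp1. The median was 15 over all lower genes, 12 over all higher genes and 13 over all tested genes with a promoter. Bfsp1 was thus not typical of the higher genes.

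Many germline and meiosis genes were below IVF. Of 47 members 19 fell, 3 rose and 25 were not called, so that 46.8% were called against 11.8% of all genes, with a median log2 fold change of −0.62 against 0.01. Sycp1 (chr3:102818499-102936100), which encodes the transverse filament of the synaptonemal complex, had 22.3, 20.7 and 24.6 with RK-701 and 578, 429, 516 and 497 in IVF. This was a fall by 4.48 ± 0.39 on the log2 scale (adjusted p = 3.98e-09), and the highest RK-701 library reached nowhere near the lowest IVF library. Mov10l1, a helicase of the piRNA pathway that silences transposons in germ cells, had 1.3, 0.254 and 0.681 against 38.3, 25.8, 38.1 and 34.2 (−5.44 ± 0.66, adjusted p = 9.25e-07). Cox7b2, a cytochrome c oxidase subunit of the testis, had no read with RK-701 and 1.1 to 2.33 in IVF, at least 22.6-fold more.

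Ddx4, Meioc, Rpl10l and Mael, members chosen after their values were seen, also fell. Ddx4, the germ cell helicase VASA, had 17.8, 8.97 and 13.3 with RK-701 and 163, 130, 150 and 157 in IVF (−3.48 ± 0.28, adjusted p = 8.78e-10). Meioc, needed to hold germ cells in meiotic prophase, had 13.4, 8.63 and 11.7 against 109, 117, 103 and 109 (−3.28 ± 0.24, adjusted p = 2.44e-10). In both genes the RK-701 libraries were close to the LatA control, which had 9.17 and 8.38 for Ddx4 and 12 and 10.1 for Meioc. Rpl10l, a retrogene copy of the ribosomal protein gene Rpl10 used in male meiosis, had 3.17, 8.3 and 9.79 against 138, 112, 130 and 139 (−4.21 ± 0.29), with the reservation that reads shared with Rpl10 could not be assigned. Mael, another piRNA factor whose promoter is printed above, had 33, 25.6 and 28.3 against 104, 75.4, 114 and 106 (−1.78 ± 0.24). Not all meiosis genes were lower. Rec8, the kleisin subunit of meiotic cohesin, rose from 0.93, 0.808, 0 and 0.139 in IVF to 16.8, 9.14 and 5.19 (4.60 ± 0.63, adjusted p = 4.93e-06). Brdt, a testis bromodomain protein, had 1127, 755 and 934 with RK-701 and 965 to 1076 in IVF (−0.12 ± 0.19, adjusted p = 0.754), and Sycp3, of the axial element of meiotic chromosomes, had 308, 280 and 177 against 190 to 268 (0.15 ± 0.26, adjusted p = 0.765).

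**Figure D2:**
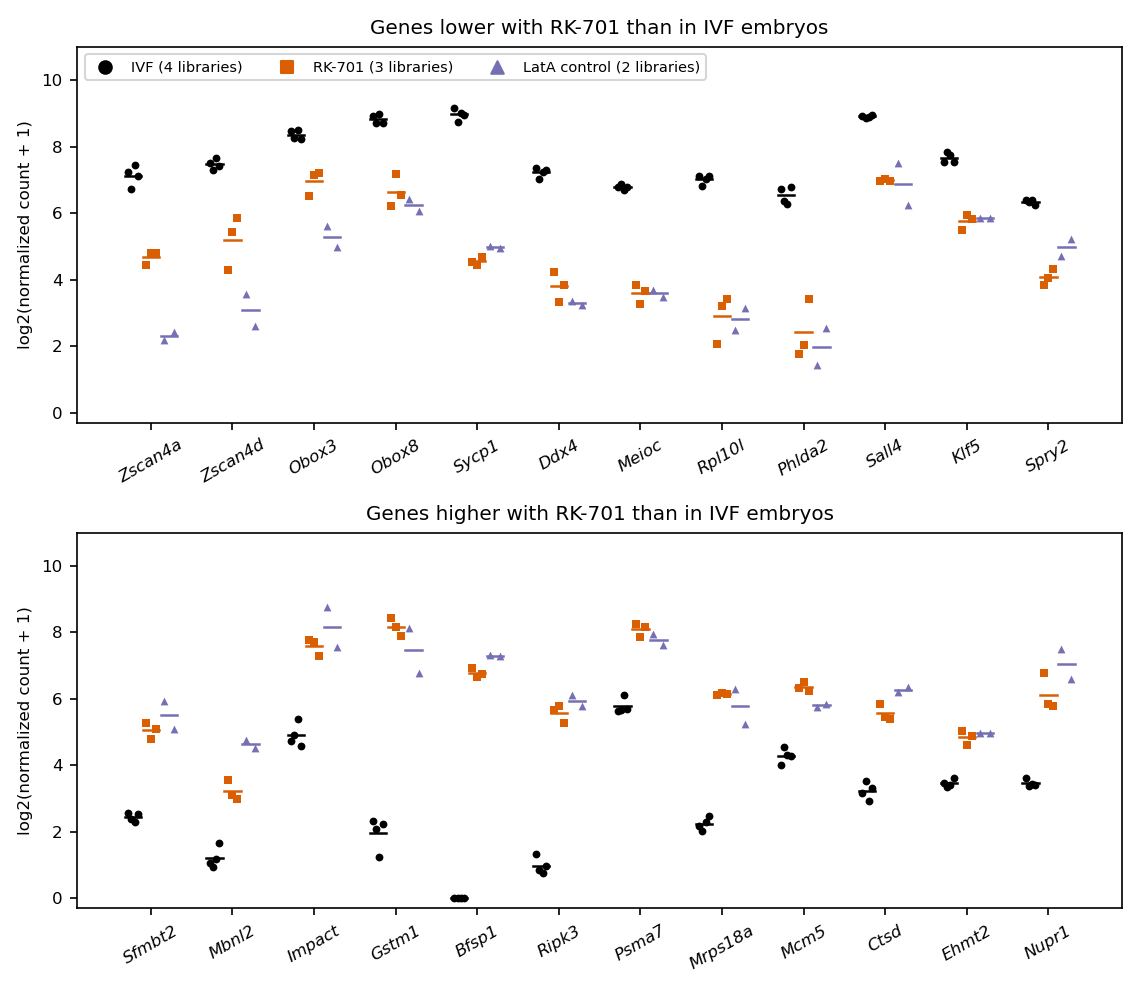
Normalized counts of 24 genes in each library, as log2(normalized count + 1), for 4 IVF libraries (black), 3 RK-701 libraries (orange) and 2 LatA control libraries (purple), with 12 genes lower than IVF in the top panel and 12 higher in the bottom panel. In every gene drawn the RK-701 points lie on one side of the IVF points, from Sycp1 at 24.6 or less against 429 or more to Bfsp1 at 99.6 or more against 0.

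Some genes of the major ZGA wave were below IVF. Of the 6 genes of the Zscan4 cluster, telomere and ZGA factors of the 2-cell embryo, 4 fell, as did 2 of 7 Obox homeobox genes and 7 of 34 tested transcripts that are driven by or linked to the endogenous retrovirus MERVL. The percentages called were 66.7, 28.6 and 20.6, and the median log2 fold changes were −2.16, −0.68 and −0.13. Zscan4a (chr7:10794242-10799057) had 20.9, 26.7 and 27.1 with RK-701 and 151, 104, 173 and 139 in IVF (−2.51 ± 0.26, adjusted p = 6.21e-08). Zscan4d had 18.4, 42.7 and 57.1 against 182, 157, 203 and 171 (−2.18 ± 0.34, adjusted p = 2.64e-05). The groups did not overlap in either gene, and the spread among RK-701 libraries was wider for Zscan4d. Zscan4f, with 4.22, 5.67 and 3.58 against 34.1 to 65.9, fell by 3.45 ± 0.44. The call of Zscan4c (−1.57 ± 0.48, adjusted p = 0.0204) was lost when IVF replicate 3 (−1.35), RK-701 replicate 1 (−1.37) or RK-701 replicate 3 (−1.4) was left out. Zscan4b (adjusted p = 0.0521) and Zscan4e (adjusted p = 0.16) were not called, with IVF levels of 1.55 to 4.02. The copies of this cluster are near-identical, so the split of reads between them is uncertain.

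Obox8 fell the most within its family, with 73.4, 144 and 93 against 483, 415, 505 and 418 (−2.14 ± 0.22, adjusted p = 5.36e-08), and Obox3 had 90.4, 141 and 147 against 351, 307, 363 and 300 (−1.39 ± 0.21, adjusted p = 2.30e-05). Obox6, at 483, 782 and 613 against 1057 to 1264, had a log2 fold change of −0.90 ± 0.19 and was under the fold threshold. Obox7, at 44.8, 28.7 and 38.3 against 25.3 to 41.9, overlapped with IVF (0.09 ± 0.22, adjusted p = 0.84). Members of the same homeobox cluster on chromosome 7 were at different distances from IVF. Among the MERVL-linked transcripts, the deubiquitinase gene Usp17le had 0.497, 1.44 and 1.7 against 6.22 to 11.2 (−2.71 ± 0.60), and the unnamed genes Gm2022 and Gm20767 fell by 1.6 ± 0.31 and 1.5 ± 0.32. Trim43b, among the most abundant transcripts of this list, had 911, 1577 and 1208 with RK-701 and 1011 to 1319 in IVF (0.06 ± 0.27, adjusted p = 0.923).

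Totipotency and pluripotency regulators were split in direction. Of 31 members 8 fell and 5 rose (41.9% called, median −0.11), but the number that rose went down to 1 without RK-701 replicate 1 or replicate 3. Tbx3, a T-box factor, had 0.621, 0.593 and 2.72 with RK-701 and 34.4, 33.6, 38.9 and 38.8 in IVF (−4.81 ± 0.61, adjusted p = 1.80e-06). Tfap2c, an AP-2 factor of early trophoblast and germ cells, had 8.88, 6.52 and 8.85 against 45.4, 44.1, 47.6 and 56.5 (−2.58 ± 0.35, adjusted p = 3.77e-06). Sall4, a zinc finger factor of the pluripotency network, had 123, 130 and 124 against 480, 465, 479 and 496 (−1.93 ± 0.24, adjusted p = 9.86e-07). The IVF levels of all 3 varied little from pool to pool, and each RK-701 library was far under them. Klf5, a Krüppel-like factor of the first lineages chosen after its values were seen, had 44.2, 60.5 and 55.9 against 187 to 227 (−1.93 ± 0.18). Sox2 was low, at 0.559, 0.0847 and 1.02 against 2.95 to 9.08, and its call (−3.35 ± 0.99, adjusted p = 0.0161) was lost without IVF replicate 3 (−3.03), RK-701 replicate 1 (−3.35) or RK-701 replicate 2 (−2.86). Dppa3, a maternal protein that guards oocyte DNA methylation, had 2608, 3004 and 2968 against 5842 to 6806 (−1.09 ± 0.16, adjusted p = 9.88e-06). Smarca5 and Taf7, the most abundant members not called, had log2 fold changes of −0.34 and −0.43.

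Low levels in the RK-701 libraries also occurred in developmental transcription factor families taken by symbol stem (such as Hox, Sox, Fox and Lhx), a list chosen after the values were seen. Of 141 tested members 32 were lower and 10 higher (29.8% called), and the median log2 fold change was −1.08 over mostly low levels. Sox11, Lmx1b and Pou3f1, described above, are among its members of largest change. Foxn2 and Foxj3, the most abundant members, were not called, at 412 to 475 against 752 to 876 for Foxn2 (−0.91 ± 0.13).

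The placental imprinted genes Phlda2 and Cdkn1c, which are expressed from the maternal allele and restrain growth, were both far below IVF. Phlda2 (chr7:143501545-143503150) had 2.42, 3.13 and 9.71 with RK-701 and 104, 82.4, 76.6 and 110 in IVF (−4.21 ± 0.52, adjusted p = 1.14e-06). Its neighbor Cdkn1c (chr7:143458339-143461050), a cyclin-dependent kinase inhibitor, had 2.86, 1.35 and 0.596 against 16.3, 19.3, 14.5 and 18.1 (−3.38 ± 0.66, adjusted p = 0.000475). Neither gene overlapped between the groups. Their list, genes imprinted by DNA methylation, had 4 lower and 7 higher of 44 members (25.0% called, median −0.01). Impact, a regulator of translation expressed from the paternal allele, rose from 25.9, 29.1, 41 and 23 to 218, 210 and 156 (2.71 ± 0.23, adjusted p = 3.07e-09), and Zim1, a zinc finger gene, from 0.583 to 2.36 to 14.7, 6.77 and 9.02 (2.69 ± 0.54).

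Genes imprinted by maternal H3K27me3, a list known for loss of imprinting in SCNT embryos, were above IVF more often than below. Of 15 tested members 7 rose and 1 fell (53.3% called), with a median log2 fold change of 1.33. Sfmbt2 (chr2:10370510-10595253), a Polycomb protein gene of the placenta, had 37.4, 26.9 and 33.1 with RK-701 and 4.96, 4.23, 3.89 and 4.81 in IVF (2.87 ± 0.37, adjusted p = 1.99e-06). Mbnl2, a splicing regulator, had 10.9, 7.7 and 6.98 against 1.09, 0.932, 1.3 and 2.16 (2.62 ± 0.36, adjusted p = 6.19e-06). No IVF library reached an RK-701 library in either gene. Runx1, a runt domain factor, rose by 1.63 ± 0.41, while Etv6 (0.26 ± 0.18, adjusted p = 0.364) and Jade1 (−0.09 ± 0.17, adjusted p = 0.781) were not called and overlapped. The call of Rbms1 (1.80 ± 0.52), an RNA-binding protein, was lost without IVF replicate 3 (1.56), IVF replicate 4 (1.6) or RK-701 replicate 1 (1.24).

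DNA replication genes were above IVF more often than below. Of 54 members 13 rose and 3 fell (29.6% called, median 0.14), and the alternatives, apart from a test of the fold of 2 itself, gave 11 to 14 that rose. Mcm5, a subunit of the replicative helicase, had 79.9, 90.9 and 75 with RK-701 and between 15.2 and 22.6 in the 4 IVF libraries (2.11 ± 0.18, adjusted p = 3.07e-09). Pold2, a subunit of DNA polymerase delta, had 14.5, 21.2 and 18.3 against 3.28 to 4.54 (2.19 ± 0.30, adjusted p = 5.20e-06), and Pold1, its catalytic subunit, rose by 2.35 ± 0.55. Among the 3 that fell was Dut, which clears dUTP, with 22.1, 15.2 and 22.9 against 119, 75.1, 112 and 147 (−2.50 ± 0.28, adjusted p = 2.09e-07). Gmnn, the licensing inhibitor geminin, had 529, 649 and 593 against 926 to 1085 (−0.72 ± 0.14) and was under the fold threshold.

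Lysosome, glycolysis and oxidative stress genes were also higher more often than lower. Lysosome and autophagy genes had 9 higher and 1 lower of 52 (19.2% called, median 0.17). Ctsd, the protease cathepsin D, had 56.5, 43.1 and 41.4 against 8.06, 10.6, 6.61 and 8.92 (2.45 ± 0.19, adjusted p = 4.41e-10). Glycolysis and pentose phosphate genes had 6 higher and 0 lower of 29 (20.7% called, median 0.60). Aldoa, an aldolase, had 144, 147 and 140 against 31.8, 45.6, 43.4 and 61.5 (1.65 ± 0.19, adjusted p = 4.21e-07), Pfkfb3, which makes the activator of phosphofructokinase, rose by 1.26 ± 0.16, and Pkm, a pyruvate kinase, was not called at 0.60 ± 0.19. Oxidative stress genes had 6 higher and 2 lower of 32 (25.0% called, median 0.45). Gsta4, a glutathione S-transferase, had 72.4, 74.3 and 78.5 against 11.2, 14.7, 11.5 and 13 (2.57 ± 0.17, adjusted p = 3.55e-11), and Cat, catalase, 8.32, 6.18 and 10.1 against 0.62 to 2.02 (2.51 ± 0.48). Srxn1, a sulfiredoxin, went the other way, with 1.86, 1.61 and 0.596 against 4.65 to 12.1 (−2.72 ± 0.56). Glutathione S-transferases as a family, also listed after the values were seen, had 6 higher and 0 lower of 21 (28.6% called). Gsta4 is itself such an enzyme, so this family and the oxidative stress list are not separate. In the LatA control 4 of the family were higher and 2 lower than in IVF.

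Among genes of protein turnover and translation, shares called ran from under to above the 11.8% of all genes. Among all protein-coding genes that share was 14.1%. Of 48 proteasome genes 4 rose and 0 fell (8.33% called, median 0.18). Psma7, an alpha subunit of the core, had 305, 233 and 284 with RK-701 and 48.4, 49.9, 68.1 and 51.4 in IVF (2.33 ± 0.21, adjusted p = 5.75e-09), and Psme1, of the activating cap, had 30.7, 32.9 and 40.8 against 8.23 to 11.5 (1.90 ± 0.22). Of 22 aminoacyl-tRNA synthetase genes 4 rose and 0 fell (18.2% called, median 0.33), Lars by 2.04 ± 0.27 and Aimp1 by 1.54 ± 0.25. Ribosomal protein genes had 0 higher and 6 lower of 76 (7.89% called, median −0.33), with Rpl13 at 39.3, 27.2 and 29.6 against 153, 45.3, 102 and 140 (−1.77 ± 0.27). IVF replicate 2 was the lowest IVF library for Rpl13 and lay closer to RK-701. The mitochondrial ribosome was split, with 8 higher and 5 lower of 77 (16.9% called, median −0.03). Mrps18a, a small subunit protein, had 68.7, 72 and 70.7 against 3.57, 3.11, 3.89 and 4.53 (4.22 ± 0.27, adjusted p = 2.38e-11), and Mrps31 rose by 3.88 ± 0.41.

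Of 54 genes of RNA decay 7 were lower and 2 higher (16.7% called, median −0.11). Ythdf2, a reader of m6A needed to clear maternal transcripts, had 178, 180 and 167 against 605, 465, 559 and 501 (−1.61 ± 0.13, adjusted p = 1.76e-09), and Tob1 and Btg1, antiproliferative partners of the deadenylase, fell by 2.00 ± 0.24 and 1.59 ± 0.17. The abundant members Btg4 (−0.05 ± 0.16) and Cnot7 (−0.60 ± 0.15) were not called. Ribosome biogenesis had 8 lower and 2 higher of 97 (10.3% called, median −0.20), with Tsr3 at 7.21, 10.4 and 6.39 against 25.1 to 37.1 (−1.91 ± 0.29). Of 65 signalling genes of the Wnt, FGF and TGF-beta pathways 6 fell and 5 rose (16.9% called). Spry2, a feedback inhibitor of FGF signalling, had 16.0 ± 2.91 (SD, n = 3) with RK-701 against 82.9, 79.7, 82.5 and 75.1 (−2.33 ± 0.24, adjusted p = 1.01e-07), Id1, a BMP target, fell by 2.79 ± 0.41 and Acvr2b, an activin receptor, rose by 2.14 ± 0.33.

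Stress and cell death genes moved both ways. The unfolded protein and integrated stress response had 5 higher and 5 lower of 44 (22.7% called, median −0.03). Nupr1, a stress-induced nuclear protein, had 109, 56.4 and 53.9 with RK-701 and 11.2, 9.39, 9.79 and 9.76 in IVF (2.88 ± 0.28, adjusted p = 3.24e-08), and Asns and Phgdh, which make asparagine and serine, rose by 2.87 ± 0.30 and 2.28 ± 0.19. Among 34 apoptosis regulators 4 rose and 4 fell (23.5% called). Ripk3 (chr14:55784995-55788865), the kinase of necroptosis, had 49.8, 53.9 and 38 against 1.55, 0.808, 0.713 and 0.976 (5.63 ± 0.43, adjusted p = 5.02e-10), and Pmaip1, the proapoptotic protein NOXA, had 6.58, 1.61 and 1.53 against 46.5, 44.6, 47.3 and 63.6 (−3.92 ± 0.62, adjusted p = 3.47e-05). Of 36 p53 target and arrest genes 4 rose and 4 fell (22.2% called), and Cdkn1a, a cell cycle inhibitor, rose by 1.32 ± 0.21 and Dram1, an autophagy regulator, by 3.30 ± 0.31. Ddx58, the viral RNA sensor RIG-I, had 102, 73.2 and 81.6 against 7.53 to 14.4 (3.06 ± 0.26, adjusted p = 3.32e-09), although the interferon list had 2 higher and 1 lower of 31 (9.68% called).

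**Figure D3:**
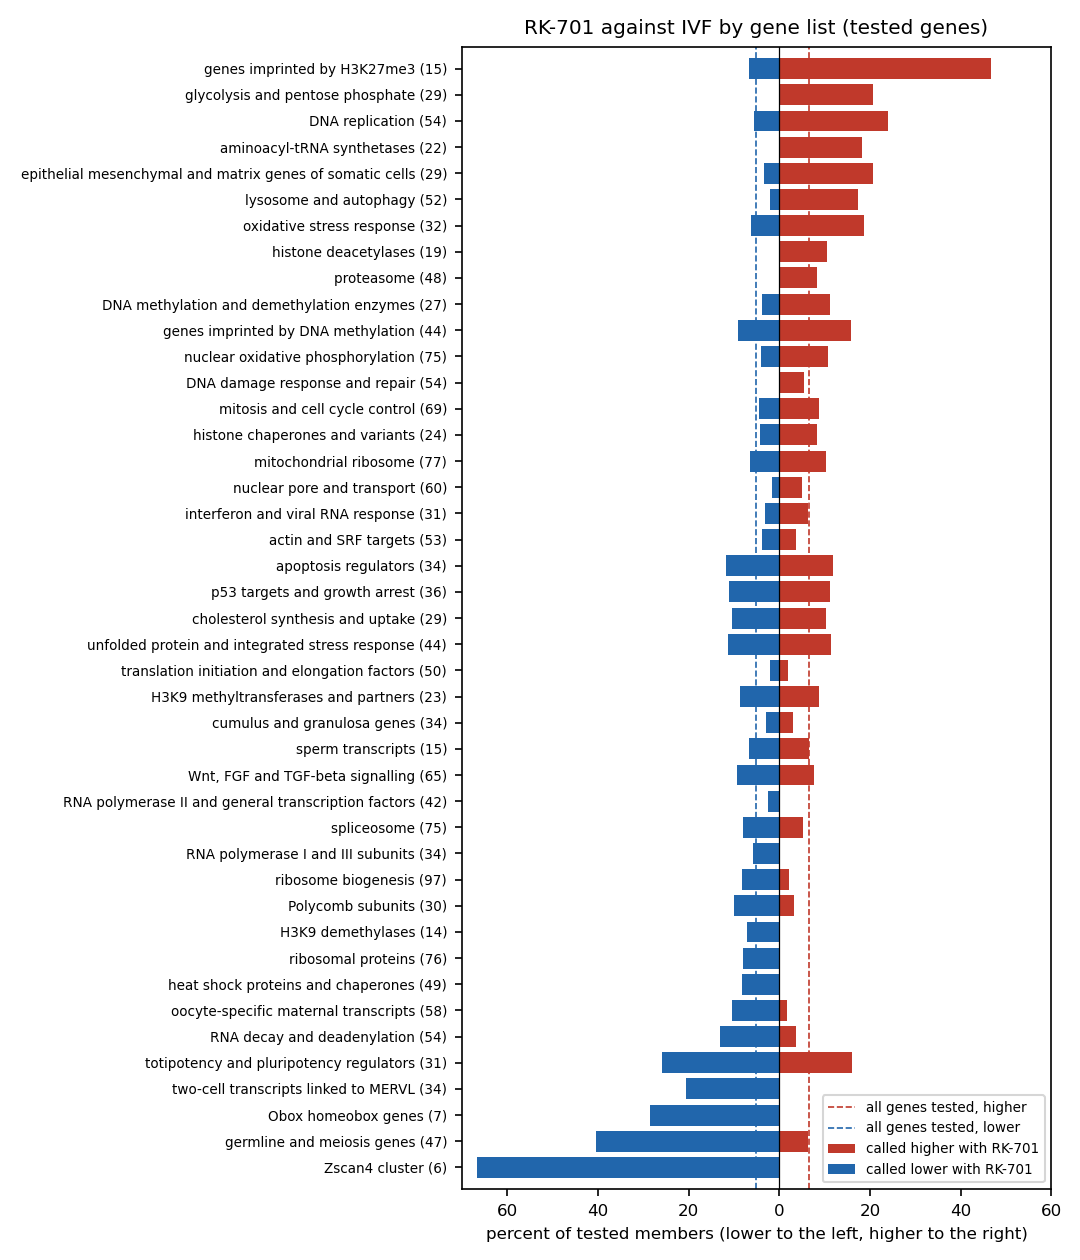
Percent of tested members called lower (blue, to the left) and higher (red, to the right) with RK-701 than in IVF in each gene list, with the number of tested members beside its name. Dashed lines mark the 5.15% lower and 6.65% higher of all 25794 genes. The Zscan4 cluster (66.7%) and germline genes reach furthest to the left, and genes imprinted by H3K27me3 furthest to the right.

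Several functions had a share of called genes near or under the 11.8% of all genes. These were RNA polymerase II and general transcription factors (1 of 42, 2.38%), translation factors (2 of 50, 4.00%), DNA damage response (3 of 54, 5.56%), RNA polymerases I and III (2 of 34, 5.88%), cumulus and granulosa genes (2 of 34, 5.88%), the nuclear pore (4 of 60, 6.67%), H3K9 demethylases (1 of 14, 7.14%), actin and SRF targets (4 of 53, 7.55%), heat shock proteins (4 of 49, 8.16%) and histone deacetylases (2 of 19, 10.5%). Oocyte-specific maternal transcripts had 6 lower and 1 higher of 58 (12.1% called, median −0.23), and the number that fell was 2 without RK-701 replicate 2. Zar1l, a relative of a maternal RNA-binding protein, had 6.34, 6.1 and 6.98 against 31.1 to 41.4 (−2.53 ± 0.32), Oog1 rose to 462, 369 and 412 from 120 to 139 (1.64 ± 0.14, adjusted p = 4.80e-09), and Oog3, at 3985 to 4614 against 4265 to 5194, was not called. Sperm transcripts had 1 higher and 1 lower of 15 (13.3% called). Near the background as well were the spliceosome (13.3%), mitosis (13.0%) and oxidative phosphorylation (14.7%, 8 higher and 3 lower of 75, with Sdhb up by 2.07 ± 0.19 and Uqcrfs1 down by 1.76 ± 0.23). Above the background were cholesterol genes, which were split at 3 higher and 3 lower of 29 (20.7%). Also above it, matrix and mesenchymal genes of somatic cells had 6 higher and 1 lower of 29 (24.1% called, median 0.30), with S100a11, a calcium-binding protein, at 8.76, 4.83 and 5.62 against 0.259 to 0.559 (3.84 ± 0.46).

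The enzymes that RK-701 inhibits were transcribed in both groups. Ehmt1 had 43.4, 62.1 and 43.3 with RK-701 and 51.8, 49.3, 60.9 and 42.5 in IVF, and the groups overlapped (−0.04 ± 0.18, adjusted p = 0.912). Ehmt2 (chr17:34898469-34914051), which encodes G9a itself, had 31.7, 23.7 and 28.7 against 10.1, 9.32, 9.66 and 11.4 (1.47 ± 0.19, adjusted p = 2.29e-06). It was at 30.8 and 30.4 in the LatA control without inhibitor, and the RK-701 and LatA groups were not called different (−0.13, adjusted p = 0.81). Of 23 H3K9 methyltransferases and partners 2 rose and 2 fell (17.4% called, median −0.22). Setdb2, an H3K9 methyltransferase, had 55.6, 72.6 and 61.4 against 149 to 224 (−1.59 ± 0.23, adjusted p = 1.12e-05), and Mphosph8, a reader of H3K9me3 in the HUSH complex, fell by 1.09 ± 0.13. Other chromatin lists were at 3 higher and 1 lower of 27 enzymes of DNA methylation and demethylation (14.8% called), 1 higher and 3 lower of 30 Polycomb subunits (13.3%) and 2 higher and 1 lower of 24 histone chaperones and variants (12.5%). Chaf1b, of the histone chaperone CAF-1, rose by 1.11 ± 0.16, Mtf2, a partner of Polycomb repressive complex 2, fell by 1.16 ± 0.17, and Suz12, a core subunit of that complex, was not called (0.07 ± 0.15).

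The LatA control, which lacked RK-701, differed from the same IVF libraries in 3948 genes (15.3%), with 2277 (8.83%) higher and 1671 (6.48%) lower. These counts and those of the lists rest on 2 unlike LatA libraries (r of 0.908), and the total shifted widely with the LatA library left out. Whether the LatA control lay further from IVF than the RK-701 embryos was not tested. Both comparisons share the IVF libraries, so only their own values are set side by side. Germline genes were lower for 19 of 47 with RK-701 and for 18 in the LatA control, with medians of −0.62 and −0.84, and DNA replication genes were higher for 13 and 7 of 54. Genes imprinted by H3K27me3 were higher for 7 and 4 of 15, and the lysosome list for 9 and 11 of 52. The Zscan4 cluster was lower for 4 and 6 of 6 (medians −2.16 and −4.66), Obox genes for 2 and 6 of 7 (−0.68 and −1.35), MERVL-linked transcripts for 7 and 13 of 34 (−0.13 and −0.86), and oocyte-specific transcripts for 6 and 32 of 58 (−0.23 and −1.04).

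Tested directly, RK-701 differed from the LatA control in 863 genes (3.35%), 447 (1.73%) higher and 416 (1.61%) lower. Zscan4a, at 3.53 and 4.38 in the LatA control, was higher with RK-701 by 2.66 (adjusted p = 6.82e-05), Zscan4d by 2.26 (adjusted p = 0.00221) and Obox3 by 1.68 (adjusted p = 0.000426), although all 3 stayed below IVF. Oocyte-specific transcripts were higher in 20 of 58 and lower in 0 (median 0.80). Omt2a had 3975, 3306 and 3477 with RK-701, 1856 and 1220 in the LatA control and 6252 to 7343 in IVF. Germline genes were higher in 5 and lower in 1 of 47 (median 0.19), and genes imprinted by H3K27me3 higher in 0 and lower in 1 of 15, namely Mbnl2, at 26.2 and 22 in the LatA control. Sycp1 (31.4 and 29.8 in the LatA control), Phlda2 (1.68 and 4.84), Tbx3 (1.03 and 1.77), Ripk3 (68.2 and 54.4) and Gstm1 were not called between both SCNT groups. Ribosomal protein genes had 0 higher and 4 lower of 76 against the LatA control (median −0.49), Rpl38 being at 24.5, 30.3 and 34.2 with RK-701, 72.6 and 99.2 in the LatA control and 63.4 to 78.2 in IVF. This direct count rests on 2 unlike LatA libraries and was 2268 without LatA control replicate 1 and 177 without replicate 2.

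**Figure D4:**
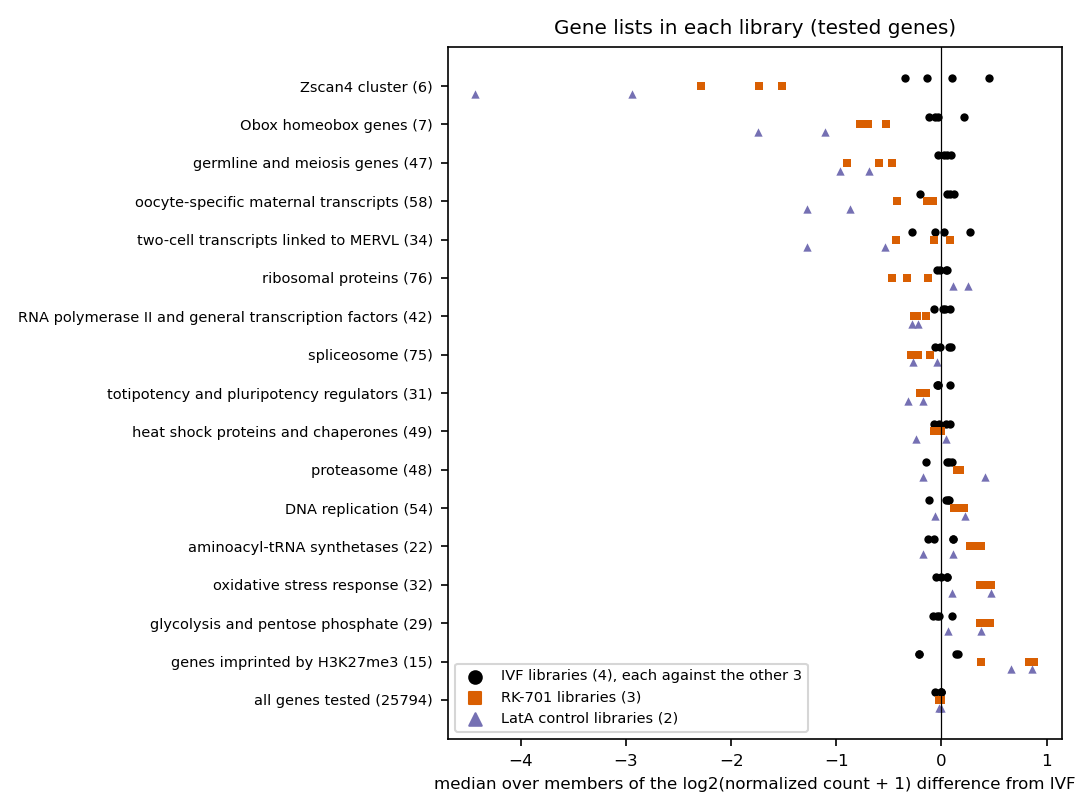
Median over the tested members of each list of the difference in log2(normalized count + 1) from IVF, for each of 3 RK-701 libraries (orange squares) and 2 LatA control libraries (purple triangles) against the IVF mean, and for each IVF library against the other 3 (black). The RK-701 libraries lie at −2.29, −1.52 and −1.73 for the Zscan4 cluster, and at 0.88, 0.38 and 0.83 for genes imprinted by H3K27me3, whereas all genes lie within 0.06 of 0.

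Promoter sequence, which the comparison did not use, is described without a test. Of 12305 tested genes with a RefSeq promoter, 52.7% were CpG-rich in the 250 bases before the start (GC content of at least 50% and an observed over expected CpG ratio of at least 0.6). The share was 58.4% of 690 genes that were lower with RK-701 and 47.9% of 985 that were higher. It was under that of all genes for the largest changes. With a fitted fold over 16 it was 44.9% of 89 lower and 29.6% of 71 higher genes. With a fitted fold over 64 it was 38.3% of 47 lower and 35.3% of 17 higher genes. Germline genes that were lower had a CpG-rich promoter in 11 of 15 cases (73.3%), against 22 of 36 in the whole list (61.1%), and lower developmental factors in 18 of 20 (90.0%) against 53 of 77 (68.8%). By contrast, 2 of 40 promoters of oocyte-specific transcripts (5.00%) and 0 of 4 of the Zscan4 cluster were CpG-rich, as the sequence of Zscan4d above shows beside that of Sycp1. The motif GGATTA on either strand, the core of sites bound by OTX-type homeodomains, was in 6.81% of promoters of lower genes, 4.67% of higher genes, 5.84% of all tested genes and 6.25% of all 32851 promoters of the table. It was in 6 of 12 promoters of MERVL-linked transcripts (50%) and in 0 of 36 germline promoters. Only 1 of those 12 promoters belonged to a transcript called lower with RK-701, and it lacked the motif. These shares are descriptions of the letters in the window, not of binding.

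**Figure D5:**
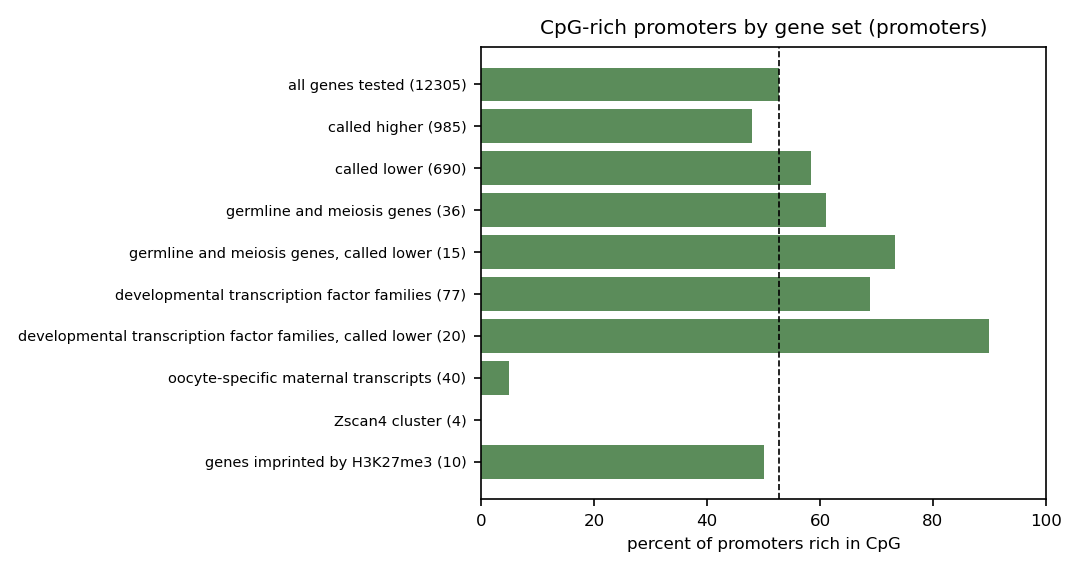
Percent of promoters (250 bases before the RefSeq start) that were CpG-rich, for gene lists and for genes called lower or higher with RK-701, with the number of promoters in each. The dashed line marks the 52.7% of all 12305 tested genes with a promoter. Lower developmental factors reach 90.0% and lower germline genes 73.3%, and oocyte-specific transcripts stand at 5.00%.

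By gene type, 15.7% of unprocessed pseudogenes were called (13 higher and 41 lower), 10.5% of lincRNAs, 8.11% of antisense genes and 5.94% of processed pseudogenes, the antisense genes with the reservation that the counts did not separate strands. By chromosome the share ran from 9.72% on chromosome 1 to 13.8% on chromosome 11, so the called genes were spread over the autosomes. The genes that were lower had a median exonic length of 2262 bases, those that were higher 2946 and all tested genes 2468.

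Among 210 gene families defined by a shared symbol stem with at least 10 tested members, 19 had 30% or more called. Commd genes, partners of a complex of endosomal sorting, had 5 higher and 0 lower of 10 (50%, median 0.89), with Commd9 at 14.3, 12.7 and 9.79 against 1.74 to 2.37 (2.53 ± 0.34). Tmed genes, cargo receptors between the endoplasmic reticulum and the Golgi, had 1 higher and 4 lower of 10 (50%), with Tmed5 at 207, 264 and 250 against 691 to 787 (−1.59 ± 0.15, adjusted p = 2.74e-08). Sox genes had 1 higher and 4 lower of 14 (35.7%), and Mcm genes 3 higher and 0 lower of 10 (30.0%).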

How the data were processed

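RNA-seq (SMART-Seq HT kit) was performed on pools of late 2-cell embryos. After trimming (Trimmomatic) and unique alignment to mm10 (STAR), the authors deposited raw counts per gene and transposable element copy from featureCounts. Pairs on more than 1 feature were not counted, strand was not used and replicates were not pooled. Transposable element rows were not used here. Gene positions were those deposited with the counts. Gene symbols and types came from GENCODE M21, which held 55134 of 55375 gene identifiers.

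Autosomal genes averaging 1 read or more were fitted over all 25 libraries and 11 groups with edgeR 4.0.16 (R 4.3.3; TMM scaling, quasi-likelihood test, Benjamini-Hochberg adjustment). A call required an adjusted p under 0.05 and a fold over 2. The test was checked on counts simulated with the same dispersion for every gene. That check did not cover differences in spread between genes or between groups. Gene lists were described by counts and medians, with no set test. Named genes were up to 10 largest called changes per direction (at least 10 reads in every library of the higher group, groups not overlapping), Ehmt1, Ehmt2, up to 4 called and 2 abundant uncalled members per list, all members of lists of at most 8, and leading members of symbol-stem families. The comparison, members and lists were chosen with earlier results of these data known. Alternatives were DESeq2 1.42.0, RLE scaling, other filters, a fold of 2 inside the test, sex chromosomes, only the compared libraries, a replicate block and leaving out each library. Some items are not reported here.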

Additional observations from a re-analysis of the deposited data

Results flagged for a closer look

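In 18 of 279 values, 1 of the 4 IVF libraries lay far from the other 3 by Dixon's criterion, which chance meets in about 5% of groups. The distant library was IVF replicate 1 in 5 cases, replicate 2 in 6, replicate 3 in 5 and replicate 4 in 2.

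At IVF replicate 1, normalized counts were 6.67 for Asns (others 2.58 to 3.24), 891 for Lbr (731 to 742), 20.3 for Pfkfb3 (26.7 to 27.7), 0.155 for Pxdn (all others 0) and 0.31 for Tnp1 (0.0622 to 0.0697). At IVF replicate 2 they were 562 for Foxj3 (484 to 495), 0.0622 for Gsta2 (all others 0), 0.622 for Igfbp3 (2.46 to 2.79), 549 for Kdm7a (457 to 466), 2.18 for Mrps31 (0.778 to 0.93) and 133 for Rrp15 (181 to 185). At IVF replicate 3 they were 6806 for Dppa3 (5842 to 5909), 1085 for Gmnn (926 to 939), 20.5 for Ldhc (29.5 to 30), 68.1 for Psma7 (48.4 to 51.4) and 0.259 for Slc39a8 (all others 0). At IVF replicate 4 they were 1.74 for Herpud1 (0.31 to 0.454) and 63.6 for Pmaip1 (44.6 to 47.3).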

How the results depend on the processing

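With the fold of 2 inside the test, RK-701 differed from IVF in 821 genes (489 higher, 332 lower), the LatA control from IVF in 1171 (677 and 494) and RK-701 from the LatA control in 8 (5 and 3), while called members of the lists went from 278 to 99 and families with 30% or more called from 19 to 0. With only the compared libraries in the fit, RK-701 differed from the LatA control in 212 genes (121 and 91) and 35 families passed. The other settings except the block gave 3028 to 3977 genes between RK-701 and IVF. Leaving out 1 library gave 2672 to 2761 genes without an IVF and 2369 to 2600 without an RK-701 library. RK-701 against the LatA control gave 497 to 668 (273 to 379 higher, 224 to 290 lower) without an RK-701 library, and 177 to 2268 (89 to 1285 higher, 88 to 983 lower) without a LatA library. Families numbered 11 to 17 without an IVF and 14 to 15 without an RK-701 library. No named gene reversed in direction. The cause of these shifts was not tested.

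Same-numbered RK-701 and IVF libraries had correlations of their deviations of −0.17, −0.13 and 0.03 over 8130 genes. Different-numbered pairs had −0.03 to 0.18. With so few libraries, these values cannot tell whether same-numbered libraries shared a batch. With the number as a replicate block, RK-701 differed from IVF in 2558 genes (1454 higher, 1104 lower) and from the LatA control in 528 (271 and 257).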
